A study of Homo sapiens with 12 samples.

Results

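The epithelial-mesenchymal transition (EMT) genes followed here were 10 genes chosen by symbol: the transcription factors SNAI1, SNAI2, ZEB1, ZEB2 and TWIST1, the epithelial factor OVOL2, and the marker genes CDH1, CDH2, VIM and FN1. Each symbol was matched to its Ensembl gene identifier, and all 10 were among the 37247 genes of both expression tables. RNA had been sequenced from 2 established human cancer lines: the lung adenocarcinoma line LC-2/ad, grown in RPMI-1640 with F-12, and the papillary thyroid carcinoma line TPC-1, grown in RPMI-1640. Both lines are known to carry a RET gene fusion, which all 4 groups therefore share. In each line, 3 libraries came from parent cells whose labelled treatment was none and 3 from cells kept for 48 h in 100 nM selpercatinib, a drug that blocks the RET kinase. The labels name no solvent for the parent cells. Nor is it stated that the 3 libraries of each group are separate cultures; p-values therefore rest on a spread between libraries that may be technical. The question was how the EMT genes of treated cells compared with those of parent cells in each line.

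EMT is the shift of epithelial cells, held together by E-cadherin (CDH1) junctions, toward a migratory state that relies on N-cadherin (CDH2), the intermediate filament vimentin (VIM) and the matrix glycoprotein fibronectin (FN1). The Snail factors SNAI1 and SNAI2 and the ZEB factors ZEB1 and ZEB2 are zinc-finger proteins that bind E-box DNA, above all the letters CACCTG, and repress CDH1 and other epithelial genes. TWIST1 is a basic helix-loop-helix factor that also binds E-boxes, and OVOL2 is a zinc-finger factor that holds epithelial identity and represses ZEB1. Carcinoma cells often express members of both programmes at once.

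Expression was given as TPM, the abundance of a transcript relative to all others, a level scaled for transcript length and for the library total. Fold changes are treated minus parent on the log2(TPM + 1) scale, which understates changes of genes near or below 1 TPM, and carry limma's standard error (SE). A gene was tested in a line when its mean TPM over the 6 libraries was at least 1, and called when its p-value, adjusted over all genes tested, was under 0.05. The depth of the libraries is unknown, since TPM keep no count of reads. Per library, 13713 to 14336 genes reached 1 TPM in LC-2/ad and 12554 to 12967 in TPC-1. Mitochondrially encoded transcripts took 9.72% to 9.82% of all TPM in parent LC-2/ad libraries and 14.0% to 15.0% in treated ones, which lowers the share left for all other genes there. Results of that line are therefore also given with these transcripts removed where that changes the call of a named gene. In TPC-1 they took 6.41% to 7.56% and 5.83% to 6.82%. On the axis of largest variation in TPC-1, parent replicate 1 had a score of -4.9, against -23.3 and -17.7 for its group's other libraries, so it stands apart from them. Treated replicate 3 had a score of 8.4, against 19.5 and 17.9 for the other treated libraries. Because the tables were made separately, levels are set side by side between the lines but not tested.

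The labelled cell types were checked against lineage markers. In LC-2/ad parent cells the lung factor NKX2-1 stood at 110 TPM and the protease NAPSA at 33.0 TPM, while the surfactant gene SFTPC was listed at 0 and SFTPB at 0.619 TPM. In TPC-1 parent cells the thyroid factors PAX8 and FOXE1 stood at 190 and 9.12 TPM, whereas the thyroglobulin gene TG was at 0.775 TPM and the thyrotropin receptor gene TSHR at 0.159 TPM, and NKX2-1 was listed at 0. In LC-2/ad parent cells PAX8 was at 14.8 TPM and FOXE1 at 11.6 TPM, so FOXE1 did not set the thyroid line apart from the lung line. The keratins KRT7, KRT8, KRT18 and KRT19, the filaments of simple epithelia, summed to between 7211 and 7587 TPM in LC-2/ad parent libraries and between 4927 and 5172 TPM in TPC-1 parent libraries. TPC-1 cells had little KRT19 (1.86 TPM) and little of the epithelial adhesion gene EPCAM (4.33 TPM), against 1732 and 379 TPM in LC-2/ad.

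In LC-2/ad, 5 of the 6 testable EMT genes rose with selpercatinib and none fell: CDH2, VIM, FN1, SNAI2 and OVOL2. Over all 14118 genes tested in that line 30.6% rose and 24.4% fell, or 55% in all, so a call there is common. The genes that rose came from both sides of the programme, since OVOL2 is an epithelial factor, and CDH1 did not pass the test. For all 5 called genes every treated value lay above every parent value, as in 35.3% of all genes tested in the line. All 5 passed the threshold in each of the 14 alternative analyses, the one without mitochondrial transcripts included. In TPC-1 none of the 8 testable EMT genes was called by limma, and 1 had an unadjusted p under 0.05, where 4.96% of 12825 genes were called, 3.75% upward and 1.21% downward. Each of the 4 genes testable in both lines had a lower log2 fold change in TPC-1 than in LC-2/ad by the test of the difference, which called 14.4% of 11996 genes in that direction and 22.2% in the other, 36.6% in all. SNAI1, ZEB1, ZEB2 and TWIST1 lay below the level needed for testing in LC-2/ad, as did CDH1 and OVOL2 in TPC-1. In bulk RNA, a change in the share of cells that express a gene and a change in its RNA per cell cannot be told apart.

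**Figure D1:**
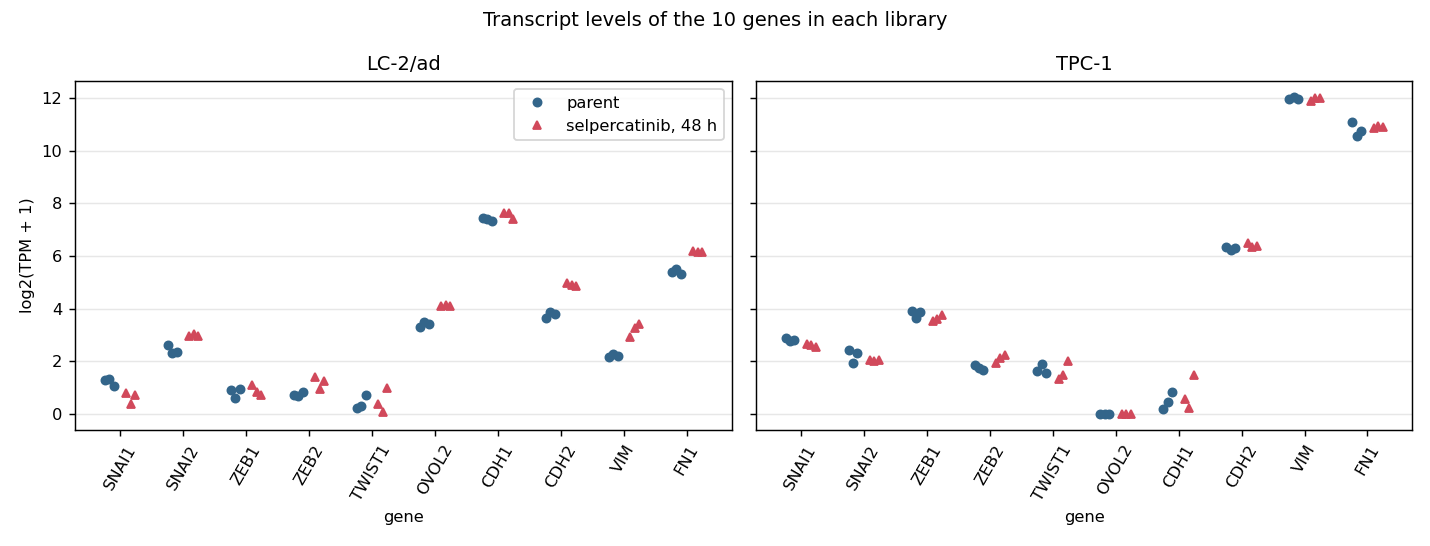
Level of each of the 10 EMT genes as log2(TPM + 1), in LC-2/ad (left) and TPC-1 (right), with 1 point per library: circles for the 3 parent and triangles for the 3 treated libraries. CDH1 is the highest of the 10 genes in LC-2/ad and VIM in TPC-1, where OVOL2 is listed at 0, and the triangles of SNAI2, OVOL2, CDH2, VIM and FN1 lie above the circles in LC-2/ad.

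Of the Snail factors SNAI2 rose in LC-2/ad, while SNAI1 was too low to be tested there. SNAI2 (ENSG00000019549, chr8:48917604-48921740, minus strand, GRCh38) read 5.14, 3.93 and 4.14 TPM in the parent libraries and 6.76, 7.18 and 6.77 TPM in the treated ones. All 3 treated libraries lay above all 3 parent libraries, and the gene rose by 0.56 ± 0.11 (log2 fold change ± SE, 95% interval 0.29 to 0.82, adjusted p = 0.00424). SNAI1 (ENSG00000124216, chr20:49982999-49988886, plus strand) read 1.44, 1.49 and 1.07 TPM in the parent libraries and 0.751, 0.299 and 0.648 TPM in the treated ones, again without overlap but in the other direction; 27.6% of all genes tested had treated values all below the parent values. Its mean over the libraries was under 1 TPM, so it was left untested. With no filter on low values its log2 fold change was -0.58 ± 0.15 with an adjusted p of 0.0308, and it passed the filter once mitochondrial transcripts were removed (-0.58, adjusted p = 0.0449). It also passed the filter without treated replicate 2 (adjusted p = 0.102) or 3 (adjusted p = 0.0601), and was then not called. Where SNAI1 passed the filter it did so only through its parent libraries, since its treated values were under 1 TPM. SNAI1 made up 21.9%, 27.5% and 20.5% of the summed TPM of both Snail genes in the parent libraries, and 10.0%, 4.0% and 8.73% in the treated ones.

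In TPC-1 neither Snail gene was called. SNAI1 stood at 6.35, 5.79 and 5.94 TPM in parent libraries and at 5.35, 5.17 and 4.79 TPM in treated libraries. The treated values all lay below the parent values, but the log2 fold change of -0.20 ± 0.12 had an adjusted p of 0.35, and 9.23% of all genes tested in the line showed the same separation. SNAI2 stood at 4.39, 2.78 and 3.96 TPM against 3.10, 2.98 and 3.09 TPM, and the groups overlapped (-0.20 ± 0.17, adjusted p = 0.54). Its log2 fold change was -0.35 without parent replicate 2, the lowest library, and -0.09 without parent replicate 1, the highest, and was called in neither. SNAI1 made up 62.2% ± 4.65 of the Snail TPM in parent libraries and 62.5% ± 1.48 in treated ones (mean ± SD, n = 3). The difference between the responses of the lines, TPC-1 minus LC-2/ad, was -0.76 ± 0.20 for SNAI2 (95% interval -1.19 to -0.33, adjusted p = 0.00965).

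ZEB1 (ENSG00000148516, chr10:31318495-31529814, plus strand) was the most abundant of the 5 inducers in TPC-1, at 13.9, 11.7 and 13.6 TPM in parent libraries and 10.7, 11.1 and 12.4 TPM in treated libraries. The highest treated library lay above the lowest parent library, and the log2 fold change of -0.18 ± 0.11 was not called (adjusted p = 0.37). In LC-2/ad, ZEB1 was at 0.893, 0.519 and 0.949 TPM in parent libraries and at 1.13, 0.781 and 0.637 TPM in treated ones, so the groups overlapped fully around 1 TPM or less. Tested without the filter, its log2 fold change there was 0.05 with an adjusted p of 0.84.

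The promoter of ZEB1 is shown because it holds the letters that Snail and ZEB proteins read. RefSeq promoter windows for the GRCh38.p14 build were matched by symbol for 5 of the 10 genes (ZEB1, ZEB2, CDH2, VIM and FN1); CDH1, SNAI1, SNAI2, TWIST1 and OVOL2 had none. Starts of windows are RefSeq's and can differ from the starts of the gene spans printed here. The 250 bases before RefSeq's start were searched on both strands for 6 motifs: the general E-box CANNTG, which includes the form CACCTG that Snail and ZEB proteins prefer, the GC box GGGCGG, the TATA box TATAAA, the cyclic AMP response element TGACGTCA and the AP-1 site TGANTCA. Overlapping matches were each kept. Of 35116 windows of that length, 61.8% held CANNTG, 17.5% CACCTG, 42.6% GGGCGG, 10.7% TATAAA, 1.6% TGACGTCA and 6.6% TGANTCA. The ZEB1 window, chr10:31318167-31318416 on the plus strand, is 1 of 7 listed for the gene, the one nearest its annotated start, and capitals mark matches to the motifs other than the general CANNTG.
ZEB1: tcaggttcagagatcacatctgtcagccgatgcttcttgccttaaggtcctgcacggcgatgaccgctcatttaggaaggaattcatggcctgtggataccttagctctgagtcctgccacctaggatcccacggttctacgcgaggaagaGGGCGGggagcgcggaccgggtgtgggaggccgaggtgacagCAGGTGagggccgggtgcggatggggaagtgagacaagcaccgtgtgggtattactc
Read 5′ to 3′, the capitals are a GGGCGG match that begins 99 bases before the start and CAGGTG, the reverse-strand reading of CACCTG, 57 bases before it. A further E-box of the general form, CATCTG, begins 234 bases before the start. A match describes letters only and says nothing of binding in these cells.

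ZEB2 (ENSG00000169554, chr2:144364364-144524583, minus strand) was higher in every treated library than in every parent library of both lines. It was too low to be tested in LC-2/ad and was not called in TPC-1. In LC-2/ad it read 0.637, 0.598 and 0.805 TPM in parent libraries and 1.62, 0.937 and 1.40 TPM in treated ones, with group means of 0.680 ± 0.110 and 1.32 ± 0.350 (SD, n = 3). Without the filter the log2 fold change was 0.46 ± 0.14 with an adjusted p of 0.0553, and with mitochondrial transcripts removed it was 0.53 (adjusted p = 0.0528). ZEB2 also passed the filter in 4 of the fits that left out 1 library: it was called without treated replicate 2 (0.58, adjusted p = 0.0458) and not without parent replicate 1, 2 or 3 (adjusted p of 0.102 to 0.161). In all fits where ZEB2 passed the filter it did so only through its treated libraries, since its parent values were under 1 TPM. Those fits therefore add no support for a rise. In TPC-1 it read 2.62, 2.32 and 2.17 TPM in parent libraries and 2.85, 3.34 and 3.78 TPM in treated ones. Here the log2 fold change was 0.35 ± 0.15 (95% interval 0.01 to 0.70, unadjusted p = 0.0472, adjusted p = 0.226). A separation of this kind, treated above parent, was seen in 35.3% of the genes tested in LC-2/ad and in 16.6% of those tested in TPC-1.

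Within the ZEB pair the balance leaned toward ZEB2 after treatment. In TPC-1, ZEB2 made up 15.8%, 16.6% and 13.8% of the summed ZEB TPM in parent libraries and 21.0%, 23.1% and 23.3% in treated ones. In LC-2/ad the shares were 41.6%, 53.5% and 45.9% in parent libraries and 58.9%, 54.5% and 68.7% in treated ones, on a sum of about 1 to 3 TPM. The treated shares lay above the parent shares in both lines, and these shares were described, not tested.

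TWIST1 (ENSG00000122691, chr7:19020991-19117672, minus strand) was low and variable. In LC-2/ad it ranged from 0.157 to 0.627 TPM in parent libraries and from 0.0505 to 0.993 TPM in treated ones. In TPC-1 it read 2.11, 2.72 and 1.96 TPM in parent libraries against 1.52, 1.82 and 3.07 TPM in treated ones. The treated TPC-1 libraries held both the lowest and the highest value of that line, and the log2 fold change of -0.08 ± 0.21 was not called (adjusted p = 0.87).

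OVOL2 (ENSG00000125850, chr20:17956979-18059188, minus strand), the counterpart of ZEB1 on the epithelial side, read 8.80, 10.4 and 9.65 TPM in LC-2/ad parent libraries and 16.4, 16.6 and 16.2 TPM in treated ones. The treated libraries were close together and all above the parent libraries, a rise of 0.71 ± 0.08 (95% interval 0.53 to 0.90, adjusted p = 0.000168). In TPC-1 it was listed at 0 in all 6 libraries. The annotated span of OVOL2 overlaps SNX5 on the same strand and MGME1 on the other, and how reads there were shared is not given in the sources used here. Other EMT genes also overlap annotated genes, among them ZEB1 and CDH1, with the pseudogenes SPTLC1P1 and FTLP14 on their own strands.

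CDH1 (ENSG00000039068, chr16:68737225-68835548, plus strand), which encodes E-cadherin, was among the abundant transcripts of LC-2/ad, above 94.0% of genes at 1 TPM or more in parent cells. It read 176, 168 and 162 TPM in parent libraries and 199, 199.6 and 171 TPM in treated libraries. Treated replicate 3 lay inside the parent range, and the log2 fold change of 0.17 ± 0.07 did not pass the threshold (95% interval 0.01 to 0.32, adjusted p = 0.0623). Without that library it was 0.24 with an adjusted p of 0.00487, and with mitochondrial genes removed from the TPM it was 0.25 with an adjusted p of 0.0127, whereas median-of-ratios scaling gave 0.07 (adjusted p = 0.357). The log2 fold change was above 0 in all 14 alternatives. In TPC-1, CDH1 was close to 0, at 0.149, 0.361 and 0.790 TPM in parent libraries and 0.486, 0.155 and 1.82 TPM in treated libraries, and was not tested.

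CDH2 (ENSG00000170558, chr18:27950966-28177446, minus strand), which encodes N-cadherin, rose the most of the called EMT genes in LC-2/ad. It read 11.5, 13.6 and 12.8 TPM in parent libraries and 30.6, 28.9 and 28.5 TPM in treated ones, so the lowest treated library stood far above the highest parent library. The log2 fold change was 1.16 ± 0.08 (95% interval 0.98 to 1.33, adjusted p = 1.16e-05). In TPC-1, N-cadherin was the only one of the cadherin pair expressed above 1 TPM on average, at 79.7, 74.9 and 78.6 TPM in parent libraries and 90.2, 80.2 and 83.2 TPM in treated ones. Each treated library again exceeded each parent library, as in 16.6% of all genes tested in that line. The log2 fold change of 0.12 ± 0.06 was not called (95% interval -0.02 to 0.26, adjusted p = 0.318). The responses of the lines differed by -1.04 ± 0.10 (TPC-1 minus LC-2/ad, 95% interval -1.25 to -0.83, adjusted p = 4.16e-06).

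In LC-2/ad the cadherin mixture held more CDH2 after treatment, with CDH1 still in excess. CDH2 made up 6.16%, 7.49% and 7.30% of the summed TPM of CDH1 and CDH2 in parent libraries and 13.3%, 12.6% and 14.3% in treated ones. The treated shares all lay above the parent shares. In TPC-1, CDH2 made up 99.0% to 99.8% of the pair in parent libraries and 97.9% to 99.8% in treated ones.

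**Figure D2:**
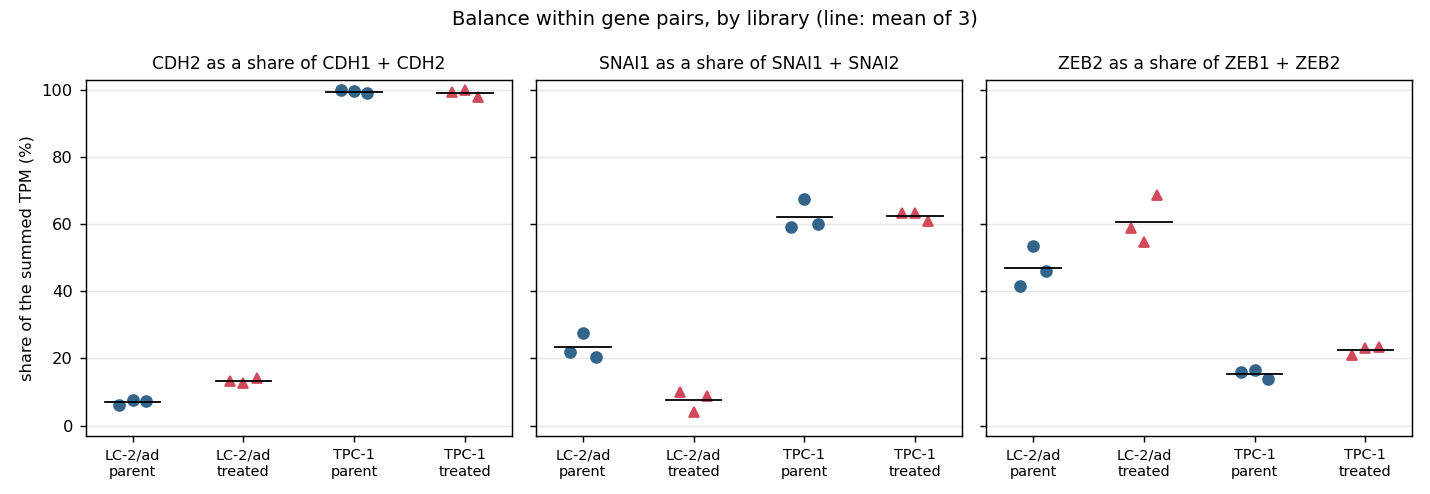
Share of CDH2 in CDH1 + CDH2, of SNAI1 in SNAI1 + SNAI2 and of ZEB2 in ZEB1 + ZEB2, in percent of the summed TPM, with 1 point per library and a bar at the group mean. In LC-2/ad the CDH2 share goes from 6.99% ± 0.721 to 13.4% ± 0.833 and the SNAI1 share from 23.3% ± 3.72 to 7.58% ± 3.16 (mean ± SD), while the TPC-1 cadherin and Snail shares overlap between the groups.

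VIM (ENSG00000026025, chr10:17228259-17237593, plus strand) was a low transcript in LC-2/ad and one of the most abundant in TPC-1. In LC-2/ad it read 3.45, 3.91 and 3.62 TPM in parent libraries, a level above only 17.4% of genes at 1 TPM or more, and 6.67, 8.72 and 9.62 TPM in treated ones. The treated libraries all lay above the parent libraries, with a log2 fold change of 0.99 ± 0.14 (95% interval 0.67 to 1.31, adjusted p = 0.000558). In TPC-1 it read 4021, 4250 and 3968 TPM in parent libraries, above 99.8% of genes at 1 TPM or more, and 3843, 4154 and 4099 TPM in treated ones. The groups overlapped, and the interval of the log2 fold change, -0.13 to 0.09, was narrow around an estimate of -0.02 ± 0.05 (adjusted p = 0.879). The responses differed by -1.01 ± 0.13 (95% interval -1.29 to -0.72, adjusted p = 6.72e-05). Even after its rise, VIM of treated LC-2/ad cells was at 8.34 ± 1.51 TPM against 4032 ± 166 TPM in treated TPC-1 cells.

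The VIM promoter is shown because the gene rose in LC-2/ad from a low level and is among the most abundant transcripts of TPC-1. The stretch is chr10:17227991-17228240, plus strand, GRCh38.p14, with the capitals as above.
VIM: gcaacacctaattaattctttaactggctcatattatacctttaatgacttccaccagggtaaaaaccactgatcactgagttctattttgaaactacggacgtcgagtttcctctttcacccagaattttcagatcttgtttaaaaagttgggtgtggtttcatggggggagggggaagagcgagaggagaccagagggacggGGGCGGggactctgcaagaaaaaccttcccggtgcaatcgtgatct
The capitals are a GGGCGG match that begins 46 bases before the start. None of the other motifs was found in the 250 bases, whose GC content of 46.0% compares with a median of 58.0% over all windows.

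FN1 (ENSG00000115414, chr2:215360440-215436172, minus strand), which encodes fibronectin, read 41.6, 44.4 and 39.2 TPM in LC-2/ad parent libraries and 71.3, 69.6 and 70.0 TPM in treated ones. The treated libraries were tightly grouped and all above the parent libraries, a rise of 0.74 ± 0.06 (95% interval 0.61 to 0.87, adjusted p = 2.19e-05). In TPC-1 it read 2193, 1526 and 1735 TPM in parent libraries and 1891, 1950 and 1946 TPM in treated ones. The treated values fell inside the parent range, which was set by parent replicate 1 at the top, and the log2 fold change of 0.10 ± 0.11 was not called (adjusted p = 0.647). Without that parent library it was 0.25 with an adjusted p of 0.0569. The responses differed by -0.64 ± 0.14 (95% interval -0.93 to -0.34, adjusted p = 0.00274).

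The FN1 promoter is shown because it holds the motif found in the fewest windows. The stretch below is chr2:215436173-215436318, written 5′ to 3′ on the minus strand of GRCh38.p14, and covers the bases from 250 to 105 before RefSeq's start. That start lies inside the gene span printed above, and the stretch stops at the edge of the span.
FN1: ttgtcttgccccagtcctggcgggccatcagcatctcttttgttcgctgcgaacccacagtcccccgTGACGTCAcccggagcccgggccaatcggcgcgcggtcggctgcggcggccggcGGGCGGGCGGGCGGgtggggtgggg
The capitals are TGACGTCA, the cyclic AMP response element, 183 bases before the start, and overlapping GGGCGG matches that begin at 129, 125 and 121 bases. TGACGTCA was found in 1.6% of all windows and in none of the windows of ZEB1, ZEB2, CDH2 and VIM. The GC content of the stretch was 74.0%. No CANNTG was found in the FN1 or CDH2 window, and the ZEB2 window held CACATG 180 bases before its start.

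**Figure D3:**
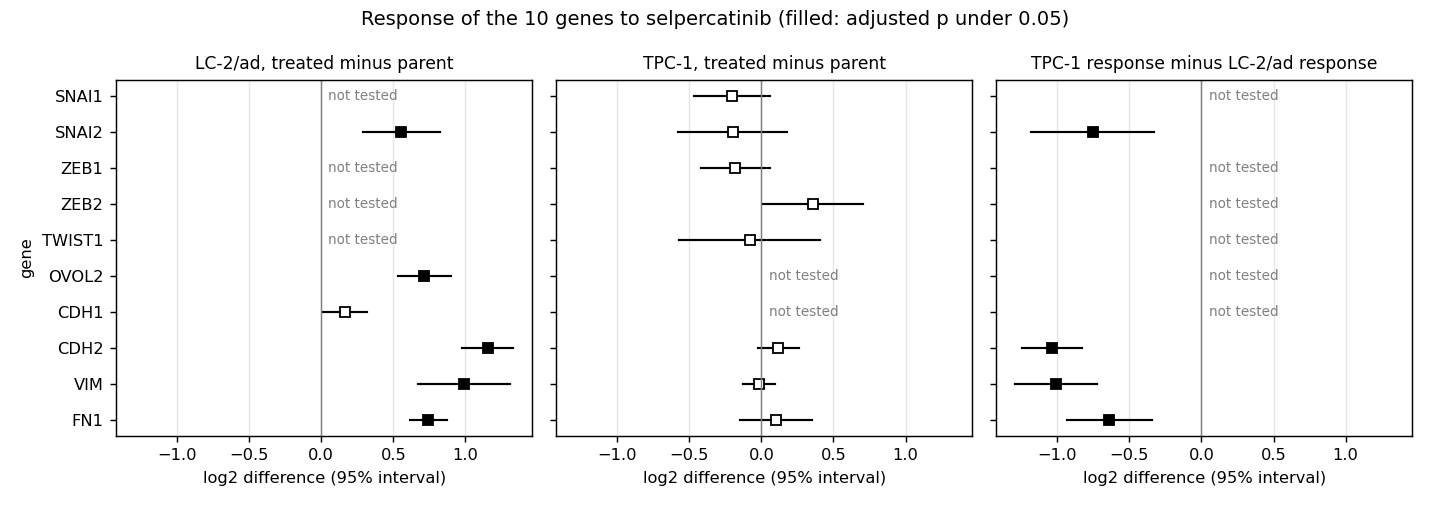
Log2 fold change of each tested EMT gene, treated minus parent on log2(TPM + 1), for LC-2/ad (left) and TPC-1 (middle), and the TPC-1 response minus the LC-2/ad response (right), with limma's 95% intervals and filled squares where the adjusted p is under 0.05. The 5 filled squares in LC-2/ad lie from 0.56 (SNAI2) to 1.16 (CDH2), no square is filled in TPC-1, and the 4 differences are all below 0.

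The transcription factors around the 5 inducers changed in mixed directions. In LC-2/ad 2 of 10 other EMT factors tested rose and 2 fell, with a median log2 fold change of 0.02 against 0.07 over all genes tested. SOX4, a factor known to act downstream of TGF-beta, rose from 72.0 ± 3.88 to 128 ± 5.05 TPM (0.82 ± 0.05, adjusted p = 1.06e-05), and the Krüppel-like repressor KLF8 rose by 0.89 ± 0.13 (adjusted p = 0.000678). The chromatin protein HMGA2 fell by 0.56 ± 0.20 in LC-2/ad (adjusted p = 0.0410), a call lost in 6 alternatives, among them removal of mitochondrial transcripts (adjusted p = 0.0548) and leaving out parent replicate 1 or 2 or treated replicate 1 or 3 (adjusted p of 0.0728 to 0.135). In TPC-1 it fell by 0.62 ± 0.10 (adjusted p = 0.00825), from 23.0 ± 2.12 to 14.6 ± 1.07 TPM. In TPC-1, 2 of 8 fell and none rose (median -0.15 against 0.05 over all genes tested). The other was SOX9, which fell from 7.64 ± 0.765 to 3.05 ± 0.101 TPM (-1.09 ± 0.13, adjusted p = 0.00192).

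In LC-2/ad more epithelial factors and junction genes rose than fell, as over all genes tested there (30.6% and 24.4%). With median-of-ratios scaling 3442 of all genes rose and 4318 fell. Of 16 epithelial transcription and splicing factors tested 9 rose and 3 fell (median 0.23), against 7 and 5 with median-of-ratios scaling (median 0.13). Among them GRHL3, a grainyhead factor of surface epithelia, rose by 0.78 ± 0.14 (adjusted p = 0.00201), and TP63, a factor of basal epithelium, fell by 0.90 ± 0.19 (adjusted p = 0.00463). GATA3 rose by 0.73 ± 0.23 from a level near 1 TPM (adjusted p = 0.0286), a call lost with no filter and without parent replicate 2 or 3 or treated replicate 3 (adjusted p of 0.0613 to 0.0867). Of 30 epithelial junction and surface genes 14 rose and 5 fell (median 0.12), a balance that depended on the scaling: 9 rose and 8 fell with median-of-ratios scaling, and 19 rose and 4 fell without mitochondrial transcripts. The tight junction gene OCLN rose by 0.57 ± 0.06 (adjusted p = 0.000145) and the desmosomal gene DSP by 0.54 ± 0.07 (adjusted p = 0.00027), while the membrane traffic gene MAL2 fell by 0.75 ± 0.03 (adjusted p = 1.43e-06).

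The keratins divided. In LC-2/ad KRT18 and KRT8, which pair in simple epithelia, fell by 0.69 ± 0.02 and 0.67 ± 0.03 (adjusted p = 5.94e-07 and 2.52e-06), and KRT7 rose by 0.47 ± 0.04 (adjusted p = 3.00e-05), with 3 of the 4 keratins lower and 1 higher (median -0.47). Their summed level was 6755 to 6903 TPM in treated libraries, below the parent range given above. In TPC-1 KRT18 fell by 0.44 ± 0.06 (adjusted p = 0.00383) and KRT7 rose by 0.38 ± 0.06 (adjusted p = 0.00634, but 0.0631 without the variance trend and 0.0649 with no filter), and the summed level overlapped between the groups, at 4923 to 5265 TPM after treatment.

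Fewer epithelial genes could be tested in TPC-1. Of 5 epithelial transcription and splicing factors 1 rose (median 0.15), the ETS factor ELF3, from 37.2 ± 3.01 to 67.2 ± 7.82 TPM (0.83 ± 0.10, adjusted p = 0.00192). Of 19 junction and surface genes 1 rose (median 0.19), the desmosomal plakophilin PKP3, by 0.48 ± 0.08 (adjusted p = 0.00911). In LC-2/ad ELF3 rose by 0.39 ± 0.03 (adjusted p = 2.71e-05) and PKP3 fell by 0.22 ± 0.04 (adjusted p = 0.00273).

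Among catenins and other cadherins as many rose as fell in LC-2/ad, 3 each of 9 tested (median -0.04), against 1 and 4 with median-of-ratios scaling and 5 and 3 of 10 without mitochondrial transcripts. Of all genes tested there 30.6% rose and 24.4% fell. The vascular cadherin CDH5 rose by 0.59 ± 0.13 from 2.07 TPM (adjusted p = 0.00663), and beta-catenin (CTNNB1), which links cadherins to actin and carries Wnt signals, fell from 211 ± 9.10 to 160 ± 15.2 TPM (-0.40 ± 0.07, adjusted p = 0.00178). The catenin-like gene CTNNAL1 fell by 0.66 ± 0.08 (adjusted p = 0.000278). In TPC-1 none of 9 rose and 2 fell (median -0.03), namely the kidney cadherin CDH6, by 0.87 ± 0.12 from 22.1 ± 3.25 TPM (adjusted p = 0.00395), and CTNNAL1, by 0.37 ± 0.06 (adjusted p = 0.0104, but 0.0573 without the variance trend and 0.0631 without parent replicate 3).

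Other mesenchymal marker genes rose more often than they fell in both lines, and they included large changes in each direction. In LC-2/ad 17 of 29 tested rose and 8 fell, with a median of 0.49. Among those that rose, FBN1 and MMP2 had parent means of 0.641 and 0.918 TPM and passed the filter only through their treated libraries. The fibrillar collagen gene COL5A1 rose from 5.96 ± 0.179 to 20.4 ± 1.72 TPM (1.62 ± 0.08, adjusted p = 3.66e-06). The matrix gene TNC, tenascin C, fell by 1.51 ± 0.10 (adjusted p = 1.06e-05). In TPC-1 8 of 32 rose and 2 fell, with a median of 0.19. The secreted glycoprotein gene FSTL1 rose there from 234 ± 11.5 to 371 ± 19.7 TPM (0.66 ± 0.06, adjusted p = 0.000496). It also rose in LC-2/ad, by 0.98 ± 0.05 (adjusted p = 2.72e-06). In TPC-1 TNC fell by 0.69 ± 0.12 (adjusted p = 0.0133, but 0.0530 to 0.0828 with no filter, without the variance trend or without treated replicate 1). Over the alternatives 5 to 9 of these markers rose in TPC-1 and up to 2 fell, and in LC-2/ad 12 to 20 rose and 5 to 9 fell.

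The 15 markers of blood, endothelial and fibroblast cells summed to 21.6 to 25.8 TPM in LC-2/ad parent libraries and 22.7 to 25.5 TPM in treated ones, and in TPC-1 to 6.92 to 11.4 and 8.46 to 10.1 TPM. The groups overlapped in both lines. Much of the LC-2/ad sum was the endothelial gene KDR, which averaged 12.4 TPM before and 11.5 TPM after treatment (adjusted p = 0.367). The endothelial genes PECAM1, VWF and CLDN5 were under 1 TPM on average in both LC-2/ad groups. HBB was listed at 0 in all 12 libraries. In LC-2/ad the fibroblast and mural cell markers of this list differed in level: DCN and PDGFRB were under 1 TPM on average in both groups, while PDGFRA averaged 4.31 TPM before and 5.39 TPM after treatment (adjusted p = 0.153) and RGS5 at 2.98 and 2.89 TPM (adjusted p = 0.874). LUM was called, from 0.495 to 2.12 TPM (1.05 ± 0.19, adjusted p = 0.00231), but it passed the filter only through its treated libraries. The part of such cells in the EMT genes' values was not tested. The median over the 4 markers tested in LC-2/ad was 0.11, with 1 rising, and over the 2 tested in TPC-1 it was 0.01, with none called. Of the 7 lung and thyroid lineage markers tested in LC-2/ad 4 rose and 2 fell (median 0.35), led by FOXE1, which rose by 1.56 ± 0.07 (adjusted p = 1.52e-06), and of 3 tested in TPC-1 PAX8 rose, by 0.53 ± 0.12 (adjusted p = 0.0458, median 0.02), a call lost in 7 alternatives (adjusted p of 0.0663 to 0.179) that include leaving out parent replicate 2 or 3 or any treated library.

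The partners of fibronectin were divided. In LC-2/ad 5 of 14 receptors and matrix partners tested rose and 3 fell (median 0.10, against 0.07 over all genes tested). This split is near that of all genes tested there, of which 30.6% rose and 24.4% fell. The counts were 4 and 4 with median-of-ratios scaling and 6 and 3 without mitochondrial transcripts. The integrin genes ITGB6 and ITGAV, whose products pair as a receptor of fibronectin and of latent TGF-beta, rose by 0.87 ± 0.07 and 0.73 ± 0.05 (adjusted p = 3.19e-05 and 1.95e-05). TGM2, a transglutaminase that crosslinks matrix, fell by 0.59 ± 0.05 (adjusted p = 6.82e-05). In TPC-1 1 of 14 rose and 1 fell (median 0.04): ITGAV rose by 0.55 ± 0.11 (adjusted p = 0.0287, but 0.0826 to 0.127 with no filter, without the variance trend, or without parent replicate 2 or 3 or treated replicate 1 or 2), and TGM2 fell from 35.8 ± 2.93 to 15.7 ± 1.26 TPM (-1.14 ± 0.09, adjusted p = 0.000388).

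Genes of TGF-beta signalling, the best known inducer of EMT, rose in LC-2/ad in 8 of 15 tested and fell in 1 (median 0.30). The counts were 7 and 1 with median-of-ratios scaling and 11 and 1 without mitochondrial transcripts. The ligand gene TGFB2 rose from 22.03 ± 0.731 to 59.6 ± 6.15 TPM (1.39 ± 0.08, adjusted p = 4.91e-06). SMAD7, an inhibitor that the pathway itself induces, rose by 0.82 ± 0.11 (adjusted p = 0.000431), and LTBP1, which tethers latent TGF-beta to the matrix, by 0.66 ± 0.12 (adjusted p = 0.00268). In TPC-1 limma called none of 17 (median -0.06), 3 had an unadjusted p under 0.05, and up to 2 fell under the alternatives.

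The corepressors and turnover factors of the Snail and ZEB proteins fell more often than they rose in LC-2/ad. Of 24 tested 11 fell and 2 rose (median -0.15). With median-of-ratios scaling 12 fell and 2 rose, and without mitochondrial transcripts 10 fell and 5 rose. EZH2 and SUZ12, subunits of the Polycomb complex that Snail proteins recruit, fell by 1.16 ± 0.09 and 0.73 ± 0.07 (adjusted p = 2.29e-05 and 9.80e-05), EZH2 from 37.8 ± 3.52 to 16.4 ± 1.31 TPM. LATS2, a Hippo kinase known to stabilise SNAI1, rose by 0.50 ± 0.09 (adjusted p = 0.00291). In TPC-1 limma called none of 25 (median 0.05), with 2 at an unadjusted p under 0.05.

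**Figure D4:**
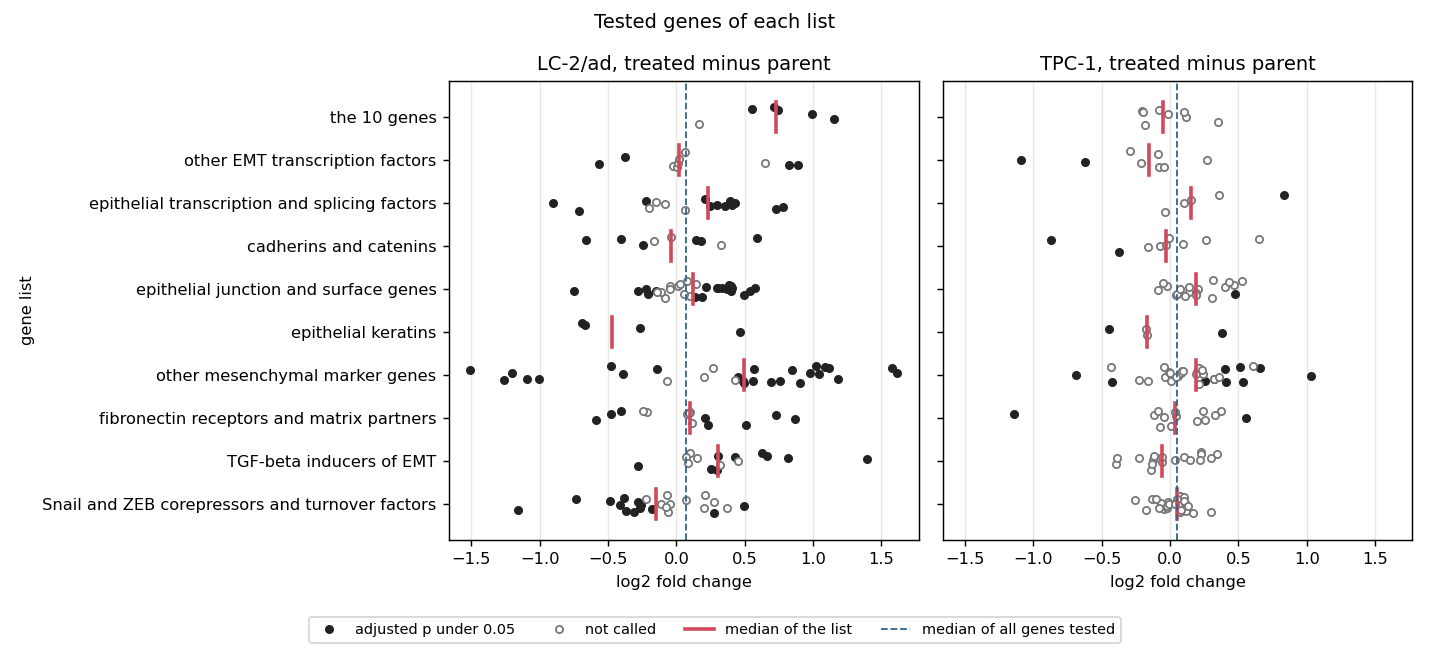
Log2 fold change of every tested gene of each list for each line, filled where the adjusted p is under 0.05, with a red bar at the list's median and a dashed line at the median of all genes tested. Other mesenchymal marker genes spread widest in LC-2/ad, from -1.51 for TNC to 1.62 for COL5A1, and most points in TPC-1 are open.

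Comparing the responses gene by gene in the fit of all 12 libraries, 18 of 28 other mesenchymal markers tested had a lower log2 fold change in TPC-1 than in LC-2/ad and 7 a higher one (median difference -0.43 against 0.04 over all genes tested). Over the alternatives 13 to 19 of these markers were lower and 4 to 8 higher. The difference was -1.29 ± 0.12 for COL5A1 (adjusted p = 4.87e-06). Of 15 TGF-beta genes 6 were lower and 1 higher (median -0.40), with -1.05 ± 0.14 for TGFB2 (adjusted p = 8.82e-05). Over the alternatives 4 to 10 were lower and at most 1 higher, the 10 without mitochondrial transcripts. The median ranged from -0.49 to -0.20, and was -0.20 without TPC-1 parent replicate 1. Of 24 corepressors and turnover factors 10 were higher and 1 lower (median 0.20), with 1.24 ± 0.13 for EZH2 (adjusted p = 1.03e-05). For ITGAV, which rose in both lines, the difference of -0.18 ± 0.14 did not pass the test (adjusted p = 0.337). OVOL2 entered this fit only with no filter or when a mean of 1 TPM in either line sufficed, and its TPC-1 values were all 0. Its difference of -0.71 is therefore the LC-2/ad rise with the sign changed, and it is no test of a response in TPC-1.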

How the data were processed

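Per the submitters' processing notes, bcl2fastq 2.20.0, Salmon and the GRCh38 build were used. The authors deposited TPM for each gene, with a separate file for each line, and no further scaling between libraries was seen. The annotation, the strand setting and the summing of transcripts to genes are not given in the sources used here. Identifiers were matched to symbols (34436 of 37247) and to GENCODE 29 (34620), whose GRCh38 coordinates are printed. TPM keep no depth, so precision is the spread between libraries. Antisense and host transcripts of the 10 genes were not analysed here.

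Groups came from the sample labels. log2(TPM + 1) was fitted with limma 3.58.1 (lmFit and eBayes with a variance trend) in R 4.3.3 per line, keeping genes whose mean TPM reached 1, and with all 12 libraries for the difference between the lines (mean of at least 1 TPM in each). Tests were two-sided, with Benjamini-Hochberg adjustment over all genes tested and a threshold of 0.05. All 10 genes were described, and from each further list up to 3 called genes per line with the largest change were named, plus lineage and cell type markers. A few genes eligible for naming are not reported here. The genes and lists were chosen with earlier results of these data known. Promoter windows are RefSeq's. Alternatives left out each library, dropped the filter or raised it to 5 TPM, changed the pseudocount to 0.1 or 5, used median-of-ratios scaling, removed mitochondrial genes, dropped the variance trend or added a replicate block. Tables and plots were made with Python 3.11.15 (matplotlib 3.10.9, numpy 2.4.6, pandas 2.3.3) and data.table (version 1.17.8).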

Additional observations from a re-analysis of the deposited data

Results flagged for a closer look

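Each of the 4 EMT genes tested in both lines responded differently in them by the test of the difference itself (TPC-1 minus LC-2/ad, limma over all 12 libraries). That test called 36.6% of 11996 genes, 14.4% lower and 22.2% higher in TPC-1, so such a call is common. The differences in log2 fold change were -0.76 for SNAI2, -1.04 for CDH2, -1.01 for VIM and -0.64 for FN1. For each gene the LC-2/ad response was a called rise, and the TPC-1 response was not called. Over all genes tested, 30.6% were called as rises in LC-2/ad, and 4.96% were called in either direction in TPC-1. Parent cells of TPC-1 had 77.7 TPM of CDH2, 4080 of VIM, 1818 of FN1 and 3.71 of SNAI2, against 12.6, 3.66, 41.7 and 4.40 TPM in LC-2/ad, and the part of these starting levels in the differences was not tested.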

How the results depend on the processing

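In LC-2/ad 5 EMT genes were called, and 5 to 7 over 14 alternatives. For TPC-1 the count was 0 in all 14. For the difference between the lines it was 4 and ranged from 3 to 5 over 21 alternatives. It was 3 when a mean of 5 TPM was required, which leaves SNAI2 out. It was 5 where the filter let in OVOL2, whose TPC-1 values were all 0. The rises of SNAI2, CDH2, VIM, FN1 and OVOL2 in LC-2/ad passed the threshold in every alternative in which the gene was tested, although a pseudocount of 5 lowered SNAI2 to 0.34 and VIM to 0.62. CDH1 in LC-2/ad came past the threshold in 4 settings: a mean TPM of at least 5 (0.17, adjusted p = 0.0475), mitochondrial genes removed (0.25), without treated replicate 3 (0.24) and the replicate block. In TPC-1 the uncalled changes of 3 genes turned direction when 1 library was left out: TWIST1 ranged from -0.29 to 0.0603 (0.016 without parent replicate 2, 0.0603 without treated replicate 1), VIM from -0.039 to 0.0171 (0.0127 and 0.0171 without the same libraries) and FN1 from -0.0162 (without parent replicate 2) to 0.25. Among uncalled TPC-1 changes that kept their direction, SNAI2 ranged from -0.35 (without parent replicate 2) to -0.09 (without parent replicate 1) and CDH2 from 0.07 (without treated replicate 1) to 0.16.

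Over all genes, LC-2/ad calls were split 4319 higher and 3451 lower, against 3442 and 4318 with median-of-ratios scaling and 5216 and 2833 without mitochondrial genes. For the difference between the lines the split was 2660 and 1733, against 2066 and 2302 without mitochondrial genes. TPC-1 calls, 636 in all, ranged from 272 (no filter) to 815. The split there was 481 and 155, against 420 and 254 with median-of-ratios scaling.

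Replicate numbers were shared by the groups, but same-numbered libraries did not deviate together (correlations of -0.05 to 0.05), so the numbers were not taken as pairs. With the replicate block, CDH1 in LC-2/ad had an adjusted p of 0.0289, and the calls over all genes were 7357 for LC-2/ad and 542 for TPC-1. Depth is unknown, so for genes near 1 TPM, such as SNAI1, ZEB1 and ZEB2 in LC-2/ad and CDH1 in TPC-1, counting error could not be separated from other spread.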
